A study of Mus musculus with 6 samples.

Results

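The genes described here encode 5 proteins of the zymogen granule, the storage organelle in which the acinar cells of the exocrine pancreas keep their digestive enzymes: syncollin (Sycn), Zg16, Gp2, Cuzd1 and Dmbt1. They were measured in the spleen of NOD mice, an inbred strain in which autoimmune diabetes arises without induction. All probe sets annotated to the 5 genes, under the current or an older symbol, were taken, which gave 8 of 45037 probe sets and 5 of 18193 genes with a probe set of their own. The genes were chosen by the log2 levels of their probe sets, which differed between the groups of mice on these same arrays, so the levels, differences and calls given for them are descriptions and support nothing on their own.

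Whole spleen RNA came from 3 groups of female NOD mice, labelled as 32 to 36 wk old, with no transgene or deletion named for any group. Untreated diabetic mice had received no drug and had become overtly diabetic. TSA-treated mice had received trichostatin A (TSA), a drug that blocks histone deacetylases, at 500 µg/kg s.c. every week from 18 to 24 wk of age, and by the study's methods those that stayed diabetic were left out. Untreated non-diabetic mice had received no drug and had stayed free of diabetes. Each group was 1 pool of RNA from 3 to 5 mice per the labels, labeled and hybridized in duplicate, so that 6 arrays were available and every SD, SE and p describes the hybridizations and not the mice. The methods give younger ages for the diabetic and the TSA-treated mice, and larger pools, than the labels do, so age and group cannot be told apart.

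Digestive enzymes are packed at the Golgi into zymogen granules, which wait below the apical membrane of the acinar cell and release their content into the duct after a meal. The inner face of the granule membrane is lined by glycoproteins and lectins that bind the cargo and sort it, whereas small GTPases and SNARE proteins on the outer face carry out docking and fusion. These functions belong to the pancreas, and an acinar gene program driven by the PTF1 complex (Ptf1a with Rbpjl and an E protein) switches many of the cargo genes on by binding an E-box and a TC-box near their starts.

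The promoter sequences of the genes are shown because the levels of the members differed together, and because E-boxes and TC-boxes are the elements that PTF1 is known to bind. Sequences came from RefSeq (GRCm38.p6), in which 3 of the 5 members matched an entry, and cover the 250 bases before the annotated start, 5′ to 3′ on the gene's strand. Zg16 and Dmbt1 are the other members. Capitals mark an E-box (CANNTG), a TC-box (TTCCCA or its reverse complement TGGGAA) or TATAAA, each searched on both strands, and no 2 marked matches overlap.
Sycn, chr7:28540635-28540884, plus strand: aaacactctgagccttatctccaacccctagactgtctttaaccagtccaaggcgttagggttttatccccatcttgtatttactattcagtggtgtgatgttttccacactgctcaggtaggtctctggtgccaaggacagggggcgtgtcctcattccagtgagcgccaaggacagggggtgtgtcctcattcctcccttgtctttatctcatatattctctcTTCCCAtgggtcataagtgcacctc
Gp2, chr7:119459273-119459522, minus strand: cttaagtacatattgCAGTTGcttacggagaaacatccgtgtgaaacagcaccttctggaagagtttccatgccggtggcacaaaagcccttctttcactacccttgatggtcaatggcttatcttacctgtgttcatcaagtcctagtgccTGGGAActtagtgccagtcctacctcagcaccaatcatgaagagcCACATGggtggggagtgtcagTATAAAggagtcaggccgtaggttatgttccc
Cuzd1, chr7:131322293-131322542, minus strand: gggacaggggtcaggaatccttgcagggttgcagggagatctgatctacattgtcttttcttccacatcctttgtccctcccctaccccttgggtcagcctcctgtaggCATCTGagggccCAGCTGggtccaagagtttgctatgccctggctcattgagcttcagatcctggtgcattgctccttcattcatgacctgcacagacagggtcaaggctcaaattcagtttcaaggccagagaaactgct
The Sycn window held 1 TC-box, 25 to 20 bases before the start, and no match to CANNTG or TATAAA. The Gp2 window held 2 E-boxes, CAGTTG at 235 to 230 and CACATG at 53 to 48 bases before the start, 1 TC-box at 98 to 93 and TATAAA at 32 to 27. The Cuzd1 window held 2 E-boxes, CATCTG at 141 to 136 and CAGCTG at 129 to 124 bases before the start, and no TC-box. Among 32851 windows of the same length, 66.2% held CANNTG, 21.6% held TTCCCA, 14.8% held both and 12.4% held TATAAA, so matches of this kind are common. CACCTG, one form of the E-box, was in 0 of the 3 member windows, in 10 of 16 windows of the digestive enzyme and cargo genes listed below and in 17.2% of all windows. A match describes the letters of a window and says nothing of binding.

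All 5 members lie on chromosome 7, as do 9.27% of the protein-coding genes of the same annotation (2030 of 21896) and 0 of the 19 measured digestive enzyme and cargo genes. Dmbt1 and Cuzd1 lie close together, with 2 protein-coding genes between them, and the other members are single genes elsewhere on the chromosome. The nearest protein-coding neighbours of the members did not share their difference between diabetic and non-diabetic mice. Umod, the gene next to Gp2 and its relative with the same zona pellucida (ZP) domain, had log2 levels of 2.90 and 2.28 in untreated diabetic, 2.55 and 2.66 in TSA-treated and 2.49 and 2.58 in untreated non-diabetic mice, and these groups overlapped. Of the other neighbours with a probe set, the differences of untreated diabetic minus untreated non-diabetic mice were -0.09 for Nccrp1 (beside Sycn), 0.25 for Kif22 and -0.15 for AI467606 (beside Zg16), 0.06 for Cdcp3 and 0.21 for Fam24b (beside Cuzd1), and -0.61 for Htra1 and 0.32 for 4933402N03Rik (beside Dmbt1).

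The arrays agreed in their centre, with median log2 levels between 3.79 and 3.95, and the duplicates correlated at 0.973 for untreated diabetic, 0.966 for TSA-treated and 0.993 for untreated non-diabetic mice. Some arrays were closer to another group than to their own duplicate: the second untreated diabetic array correlated at 0.990 with the first TSA-treated one, and the first untreated diabetic array at 0.987 and 0.985 with the untreated non-diabetic ones. The first TSA-treated array, at 0.966 with its duplicate, was also closer to other groups. It correlated at 0.979 and 0.990 with the untreated diabetic arrays and at 0.971 with the first untreated non-diabetic array. The second TSA-treated array stood apart from the rest. Its beta-actin level was higher at the 3′ than at the 5′ end by 5.61 on the log2 scale, whereas this gap, which widens as RNA is degraded or labeled short, was 3.45 on its duplicate, 2.42 and 3.32 on the untreated diabetic and 2.35 and 2.05 on the untreated non-diabetic arrays. B cell, T cell, red pulp and erythroid genes were measured as in a spleen (10 of the 13 listed had a probe set of their own, and 1 of the 10, the alpha-globin gene Hba-a1, was below the lowest array median on all arrays), with a summed level of 13.08 and 13.06 in untreated diabetic, 12.66 and 11.75 in TSA-treated and 13.11 and 13.07 in untreated non-diabetic mice on the log2 scale. Of these 10 genes 2 were higher in TSA-treated than in untreated non-diabetic mice, with a median difference of -0.68. For untreated diabetic minus untreated non-diabetic mice 4 of the 10 were higher, with a median of -0.12. On the second TSA-treated array these genes were lower than on the first, by a median difference of -0.78. Levels close to the array median are near the background of the array, so that a difference that starts there is compressed. Levels are given on the log2 scale throughout, and those of different probe sets are not comparable.

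Sycn, which encodes syncollin, a small protein bound to the inner face of the granule membrane, was measured by 2 probe sets. The probe set that stands for the gene (1434803_a_at) had log2 levels of 11.61 and 11.22 in untreated diabetic, 8.85 and 8.55 in TSA-treated and 4.52 and 4.13 in untreated non-diabetic mice. The groups did not overlap, and the TSA-treated arrays lay between the others. The difference of untreated diabetic minus untreated non-diabetic mice was 7.09 ± 0.23 (SE), which is 136-fold and the tenth largest of all 45037 differences. TSA-treated mice were above untreated non-diabetic mice by 4.37 and untreated diabetic mice above TSA-treated mice by 2.71, each with the same SE.

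The other Sycn probe set (1451228_a_at) gave the same order of the groups with a wider spread between the TSA-treated duplicates. Its log2 levels were 9.89 and 9.49 in untreated diabetic, 6.93 and 5.45 in TSA-treated and 4.02 and 3.65 in untreated non-diabetic mice. The second TSA-treated array was lower than the first by 1.47 on this probe set and by 0.29 on 1434803_a_at. The differences were 5.86 for untreated diabetic minus untreated non-diabetic, 2.36 for TSA-treated minus untreated non-diabetic and 3.50 for untreated diabetic minus TSA-treated mice, with an SE of 0.48.

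Zg16, a lectin of the jacalin family that links cargo to the granule membrane and is also made by goblet cells of the gut, was measured by 3 probe sets. On 1434137_x_at the log2 level was 12.06 and 11.87 in untreated diabetic, 9.53 and 10.17 in TSA-treated and 5.77 and 5.38 in untreated non-diabetic mice. The suffix _x_at marks a probe set that may share probes with other transcripts. The untreated diabetic arrays were highest and the untreated non-diabetic arrays lowest, without overlap.

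The remaining Zg16 probe sets repeated this order. On 1428359_s_at the log2 level was 11.07 and 11.19 in untreated diabetic, 8.50 and 7.69 in TSA-treated and 3.94 and 3.86 in untreated non-diabetic mice, and on 1428358_at it was 8.33 and 8.37, 5.51 and 4.21, and 2.66 and 3.09 in the same groups. The difference of untreated diabetic minus untreated non-diabetic mice was 7.23 ± 0.28 (SE) on 1428359_s_at, 6.39 ± 0.27 on 1434137_x_at and 5.47 ± 0.43 on 1428358_at. The probe sets of Zg16 disagreed more on the TSA-treated mice, which were above untreated non-diabetic mice by 4.28 on 1434137_x_at, by 4.19 on 1428359_s_at and by 1.99 on 1428358_at. The second TSA-treated array was the higher of the duplicates on the first of these and the lower on the rest.

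Gp2, the abundant glycoprotein that a lipid anchor holds at the granule membrane and that M cells of the gut use to take up bacteria, was measured by 1 probe set (1449452_a_at). Its log2 level was 9.56 and 9.71 in untreated diabetic, 7.43 and 5.61 in TSA-treated and 6.49 and 5.92 in untreated non-diabetic mice. Gp2 was the member whose TSA-treated arrays overlapped with the untreated non-diabetic ones, since one lay above and one below both of them. Untreated diabetic mice were above untreated non-diabetic mice by 3.43 ± 0.57 (SE), 10.8-fold, and above TSA-treated mice by 3.12 ± 0.57, whereas TSA-treated mice differed from untreated non-diabetic mice by 0.31 ± 0.57. Without the first TSA-treated array this last difference was -0.60, and without the second it was 1.22.

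Cuzd1, a membrane protein of the granule with CUB and ZP domains, had, with Gp2, the smallest difference among the members for untreated diabetic minus untreated non-diabetic mice. Its log2 level was 7.19 and 7.58 in untreated diabetic, 5.15 and 5.44 in TSA-treated and 4.30 and 3.92 in untreated non-diabetic mice (1417413_at). The groups did not overlap. Untreated diabetic mice were higher by 3.28 ± 0.23 (SE, 9.7-fold) than untreated non-diabetic mice and by 2.09 than TSA-treated mice, and TSA-treated mice were above untreated non-diabetic mice by 1.19.

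Dmbt1, a large secreted glycoprotein with scavenger receptor cysteine-rich, CUB and ZP domains that in the mouse pancreas is also the precursor of muclin, had the smallest SE among the members. Its log2 level was 8.69 and 8.94 in untreated diabetic, 6.87 and 7.15 in TSA-treated and 3.82 and 3.78 in untreated non-diabetic mice (1418287_a_at). Here the TSA-treated arrays were nearer to the untreated diabetic than to the untreated non-diabetic arrays. Untreated diabetic mice were higher by 5.02 ± 0.18 (SE, 32.5-fold) than untreated non-diabetic mice and by 1.81 than TSA-treated mice, and TSA-treated mice were above untreated non-diabetic mice by 3.21 (9.28-fold). In these pooled spleens, fewer cells of a type and less RNA per cell cannot be told apart.

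**Figure D1:**
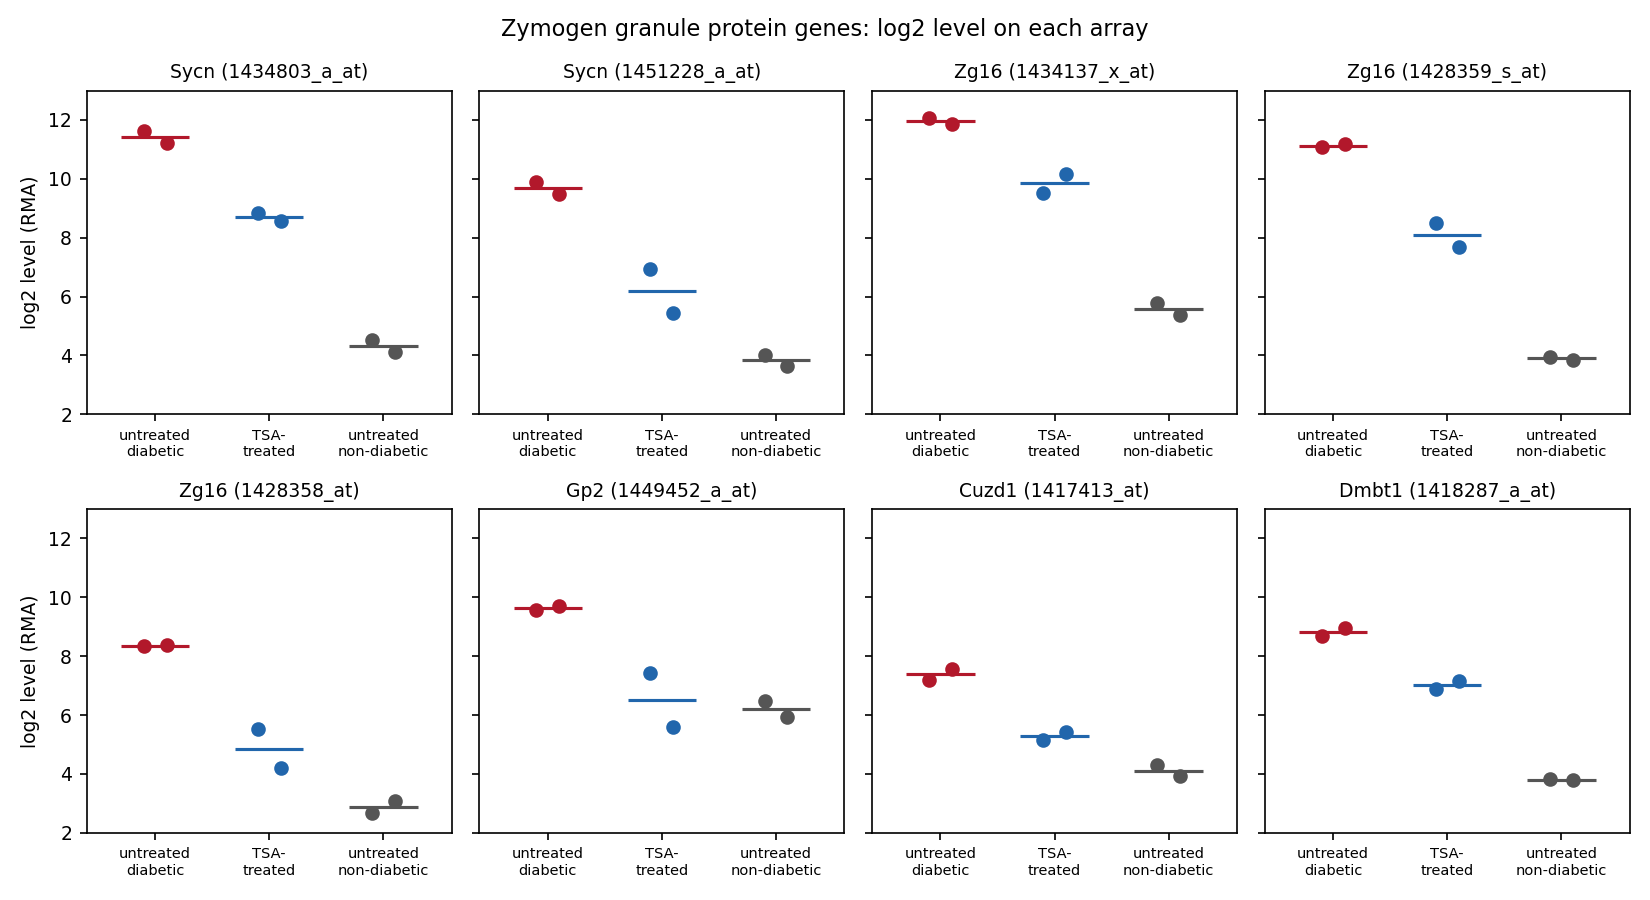
Log2 level of each member probe set on each of the 6 arrays, in untreated diabetic, TSA-treated and untreated non-diabetic mice from left to right (points are arrays, bars are means of 2). The untreated diabetic arrays are the highest in all 8 panels, and the TSA-treated arrays lie between the other groups in all panels but that of Gp2, where they are at 7.43 and 5.61.

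The first comparison asked how the spleens of untreated diabetic mice differed from those of untreated non-diabetic mice. All 8 member probe sets were higher in untreated diabetic mice, with a median difference of 5.66 (range 3.28 to 7.23), while the median over all 45037 probe sets was 0.012. Both untreated diabetic arrays were above both untreated non-diabetic arrays for 8 of 8 member probe sets, as they were for 21.6% of all probe sets. At an adjusted p under 0.05 in limma, 7 of 8 were called higher against 0.0866% of all probe sets, and Gp2 was the one not called. The count was 4 when the second untreated diabetic array or either untreated non-diabetic array was left out, 5 without the first untreated diabetic array and 8 without either TSA-treated array. In these fits the calls over all 45037 probe sets moved too, to 23 or 24 higher where the count was 4, 38 where it was 5 and 46 where it was 8, against 39 with all arrays. The smallest differences were those of Cuzd1 (3.28) and Gp2 (3.43), and the largest were those of Zg16 (7.23 on 1428359_s_at) and Sycn (7.09 on 1434803_a_at).

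The second comparison set TSA-treated against untreated non-diabetic mice. The 8 member probe sets had a median difference of 2.78 (range 0.31 to 4.37), with a median of 0.052 over all probe sets. Arrays did not overlap for 7 of 8, Gp2 excepted, and for 26.3% of all probe sets. In limma 4 of 8 were called higher, against 0.0577% of all probe sets: 1434803_a_at of Sycn, 1434137_x_at and 1428359_s_at of Zg16, and Dmbt1. The count was 0 when either untreated non-diabetic array was left out and 5 without the first TSA-treated array. No probe set at all was called in the first case (0 of 45037), and 584 were called higher in the other, against 26 with all arrays. This comparison and the first share the untreated non-diabetic arrays.

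The third comparison set untreated diabetic against TSA-treated mice. The 8 member probe sets were higher in untreated diabetic mice by a median of 2.87 (range 1.81 to 3.50), with a median of -0.025 over all probe sets, and arrays did not overlap for 8 of 8 and for 11.4% of all probe sets. In limma 0 of 8 were called, against 0.0244% of all probe sets called higher. Without adjustment 8 of 8 had a limma p under 0.05, as did 2.06% of all probe sets on the higher side. The local pooled error test called 6, and 69 of all 45037 probe sets higher. Leaving out the first TSA-treated array brought the limma count to 8, while 921 of all 45037 probe sets were then called higher, against 11 with all arrays.

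**Figure D2:**
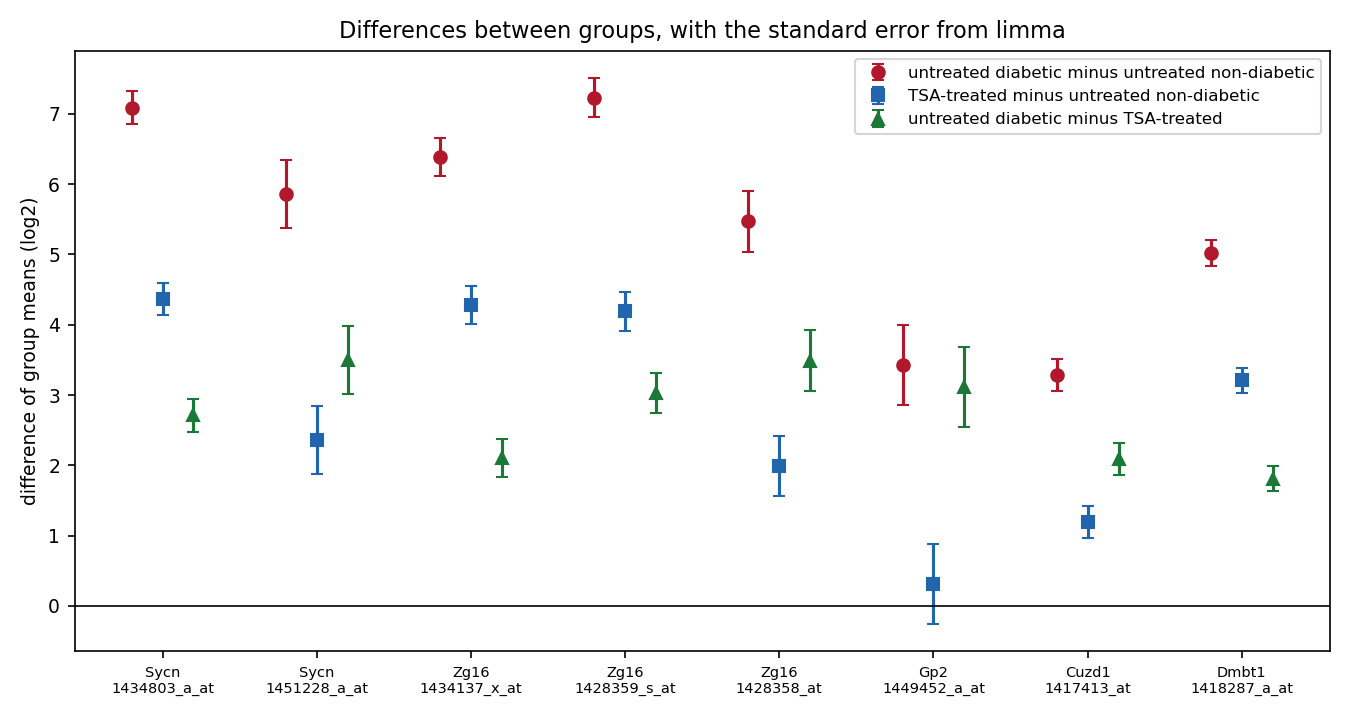
Difference of group means (log2) for each member probe set, with the SE from limma as bars: untreated diabetic minus untreated non-diabetic (circles), TSA-treated minus untreated non-diabetic (squares) and untreated diabetic minus TSA-treated mice (triangles). The circles run between 3.28 and 7.23 and the triangles between 1.81 and 3.50, and the Gp2 square, at 0.31, is the nearest to 0.

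The position of the TSA-treated mice between the other groups was set out for each member. Expressed as a percent of the difference of untreated diabetic minus untreated non-diabetic mice on the log2 scale, the difference between TSA-treated and untreated non-diabetic mice was 66.9% for Zg16 (1434137_x_at), 64.0% for Dmbt1, 61.7% for Sycn (1434803_a_at), 36.2% for Cuzd1 and 9.1% for Gp2. The other probe sets of Zg16 and Sycn gave lower percents, 58.0% and 36.3% for Zg16 and 40.2% for Sycn. The lowest percents of Sycn and Zg16 were thus near that of Cuzd1 as means of the duplicates, while the single arrays differed. With the first and the second TSA-treated array alone, 1451228_a_at of Sycn was at 52.8% and 27.6% and 1428358_at of Zg16 at 48.2% and 24.3%. Cuzd1 was at 31.8% and 40.5%. The value of Gp2 rested on 1 array: with the first TSA-treated array alone it was 35.6%, next to 31.8% for Cuzd1, and with the second, whose beta-actin gap was widest, it was -17.4%. Zg16 (1434137_x_at), Dmbt1 and Sycn (1434803_a_at) lay between 59.6% and 71.9% with either array alone.

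The widest spreads between duplicates were in the TSA-treated mice. The second TSA-treated array was below the first by 1.82 for Gp2 (log2 level), by 1.47 for 1451228_a_at of Sycn, by 1.31 for 1428358_at of Zg16 and by 0.81 for 1428359_s_at of Zg16. It was above the first by 0.63 for 1434137_x_at of Zg16, by 0.29 for Cuzd1 and by 0.28 for Dmbt1. In all, 3 of 8 member probe sets (37.5%) were lower by over 1 on the second array, as were 6 of 30 probe sets of the digestive enzyme and cargo genes (20.0%) and 6.61% of all probe sets. In the other groups no member's duplicates differed by more than 0.40 in untreated diabetic or 0.57 in untreated non-diabetic mice. The wider 3′ to 5′ gap of the second TSA-treated array stands beside these differences, and its part in them was not tested.

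**Figure D3:**
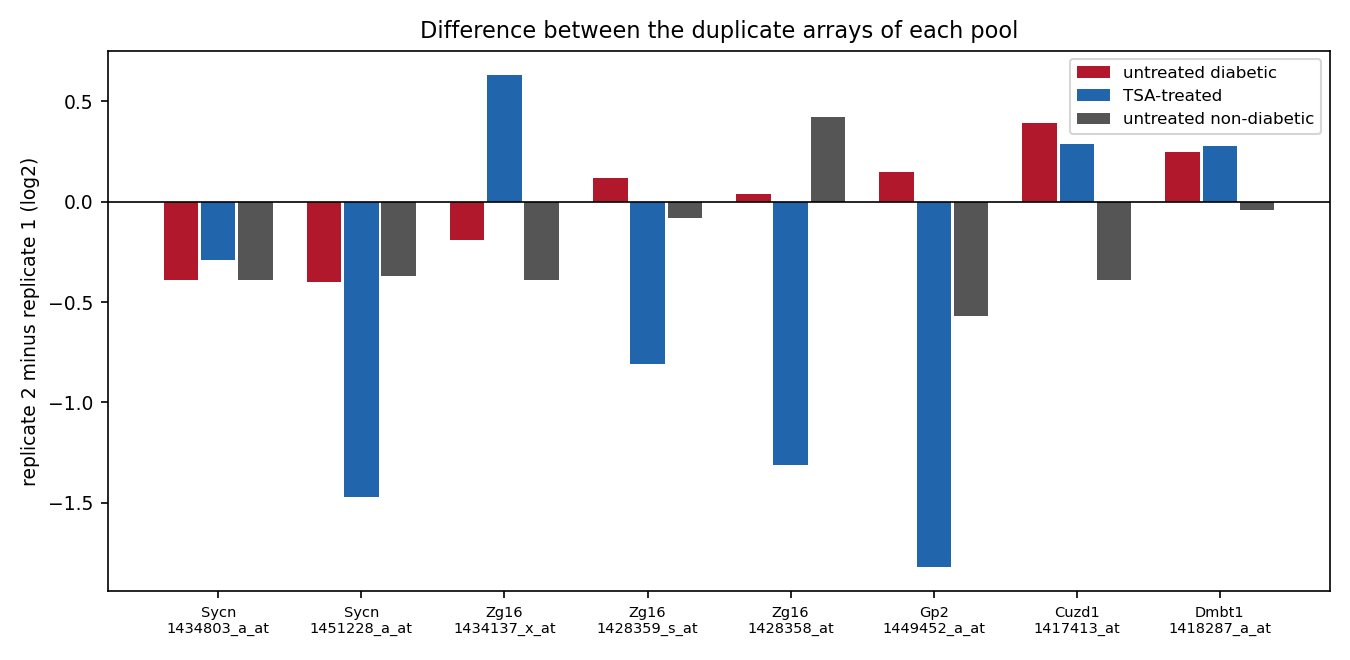
Log2 level of replicate 2 minus replicate 1 for each member probe set in untreated diabetic, TSA-treated and untreated non-diabetic mice (bars from 0). The TSA-treated bars of Gp2 (-1.82), of 1451228_a_at of Sycn (-1.47) and of 1428358_at of Zg16 (-1.31) reach below -1, and no bar of the other groups exceeds 0.57 in size.

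Genes that the granule carries were compared with its membrane and content proteins. Of 29 digestive enzymes and other cargo genes, 19 had a probe set of their own, and all 19 were higher in untreated diabetic than in untreated non-diabetic mice, by a median of 5.89 (range 0.58 to 7.91). Of these 16 rose at an adjusted p under 0.05, led by colipase (Clps, 7.91), carboxypeptidase B1 (Cpb1, 7.53) and carboxypeptidase A1 (Cpa1, 6.98). Fewer of them, and of all probe sets, were called higher without the second untreated diabetic array or either untreated non-diabetic array. In TSA-treated mice all 19 were above untreated non-diabetic mice, by a median of 3.19, and 11 of them were called higher. Reg1, a secreted lectin of acinar cells, came next after Clps (5.47) and Cpb1 (5.23) at 4.59. Between untreated diabetic and TSA-treated mice 6 of 19 were called higher, with a median of 2.51, among them the phospholipase Pla2g1b (3.57), the chymotrypsin-like protease Ctrl (2.81) and the elastase Cela3b (2.52). Leaving out single arrays moved these counts: to 0 of 19 for TSA-treated over untreated non-diabetic mice when either untreated non-diabetic array was dropped, and for untreated diabetic over TSA-treated mice to 17 without the first TSA-treated array and to 0 without any other single array. Where the count was 0, limma called 0 of all 45037 probe sets as well, and where it was 17, 921 were called higher. The members, counted once per gene, had medians of 5.02, 3.21 and 2.11 in the 3 comparisons in the same order.

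The summed level of the 19 cargo genes was 15.42 and 15.40 in untreated diabetic, 12.86 and 12.51 in TSA-treated and 9.44 and 9.34 in untreated non-diabetic mice on the log2 scale. That of the 5 members was 13.09 and 12.90, 10.58 and 10.78, and 7.65 and 7.21 in the same groups. These acinar cell markers had the same order of groups as the members, although between the TSA-treated duplicates the cargo sum was lower and the member sum higher on the second array, and their part in the members' differences was not tested. One cargo gene stood outside this order: Reg2, a secreted lectin, had log2 levels of 5.25 and 5.07 in untreated diabetic, 6.05 and 6.05 in TSA-treated and 4.49 and 4.68 in untreated non-diabetic mice, so that TSA-treated mice were highest. Reg2 was chosen after its values were seen.

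The proteins that dock and fuse the granule are shared with the regulated secretion of many cells, and their genes gave far smaller differences than the members. Of 14 such genes, all measured, 0 were called by limma in the comparison of untreated diabetic with untreated non-diabetic mice, and the local pooled error test called 0 as well, while 0 had an unadjusted p under 0.05 in limma and 3 in the methods' t-test. Their median difference was -0.15 (range -0.51 to 0.41), and it was -0.36 for TSA-treated minus untreated non-diabetic and 0.28 for untreated diabetic minus TSA-treated mice. Rab3d, a small GTPase of the zymogen granule surface, had a difference of -0.10, Rab27b one of 0.41 and Vamp8, the SNARE that acinar granules use for fusion, one of 0.40. In TSA-treated relative to untreated non-diabetic mice 0 were called by limma, 4 had an unadjusted limma p under 0.05 and the local pooled error test called 1, none of them higher. In untreated diabetic against TSA-treated mice these counts were 0, 1 and 0.

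Among 7 transcription factors and endoplasmic reticulum chaperones of acinar cells, Pdia2, the pancreas-specific protein disulfide isomerase, was the one called in untreated diabetic against untreated non-diabetic mice. Its log2 levels were 8.32 and 8.35 in untreated diabetic, 6.42 and 6.28 in TSA-treated and 4.68 and 3.80 in untreated non-diabetic mice, a difference of 4.10. Ptf1a, which defines the acinar lineage, was below the lowest array median (3.79) on every array, at 3.16 and 3.35 in untreated diabetic, 3.30 and 3.48 in TSA-treated and 3.00 and 2.98 in untreated non-diabetic mice. The list as a whole had medians of 0.33, 0.33 and 0.09 in the 3 comparisons. For untreated diabetic minus untreated non-diabetic mice, 2 of 7 had an unadjusted limma p under 0.05, and the local pooled error test called 1. Both untreated diabetic arrays were above both untreated non-diabetic arrays for 5 of 7, as they were for 21.6% of all probe sets. In TSA-treated relative to untreated non-diabetic mice 0 of 7 were called by limma, 1 had an unadjusted limma p under 0.05 and 1 was called by the local pooled error test, and in untreated diabetic against TSA-treated mice these counts were 0, 1 and 0.

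Gp2, Cuzd1 and Dmbt1 share the ZP domain, a module by which extracellular proteins polymerize, with many proteins outside the pancreas. Of 11 other genes with this domain, 10 were measured, and their medians were 0.06 for untreated diabetic minus untreated non-diabetic, 0.06 for TSA-treated minus untreated non-diabetic and 0.00 for untreated diabetic minus TSA-treated mice. Of the 10, 7 were below the lowest array median on all arrays. Limma called 0 in each comparison. Without adjustment 0, 1 and 0 had a limma p under 0.05 in the same order of comparisons, and the local pooled error test called 0, 1 and 0.

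Other tissues that make some of the members were examined by their marker genes. The 11 goblet cell and intestinal genes had log2 levels between 2.33 and 6.0, with 7 of the 11 below the lowest array median on all arrays, and a summed level of 7.29 and 7.28 in untreated diabetic, 7.20 and 7.40 in TSA-treated and 7.36 and 7.28 in untreated non-diabetic mice. Muc2, the goblet cell mucin, was at 3.03 and 3.15, 2.95 and 3.44, and 2.98 and 2.87 in the same groups. Of the salivary genes 4 of 5 were measured and lay between 2.45 and 3.59, of the pancreatic duct genes 5 of 6 lay between 2.42 and 4.01, and of the islet genes 6 of 7 lay between 2.45 and 4.41. In each of these 4 lists 0 genes were called by limma in any of the 3 comparisons, 0 had an unadjusted limma p under 0.05 and the local pooled error test called 0, while the methods' t-test gave 1 duct gene an unadjusted p under 0.05 in untreated diabetic against untreated non-diabetic mice. Of the 5 duct genes 4 were below the lowest array median on all arrays, among them Krt19, Cftr and Sox9. Of the 6 islet genes 4 were, among them Gcg. The insulin gene Ins2 was above that median on all arrays. Its log2 levels were 4.35 and 3.91 in untreated diabetic, 4.12 and 4.19 in TSA-treated and 4.16 and 4.41 in untreated non-diabetic mice. It had a difference of -0.15 for untreated diabetic minus untreated non-diabetic mice.

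**Figure D4:**
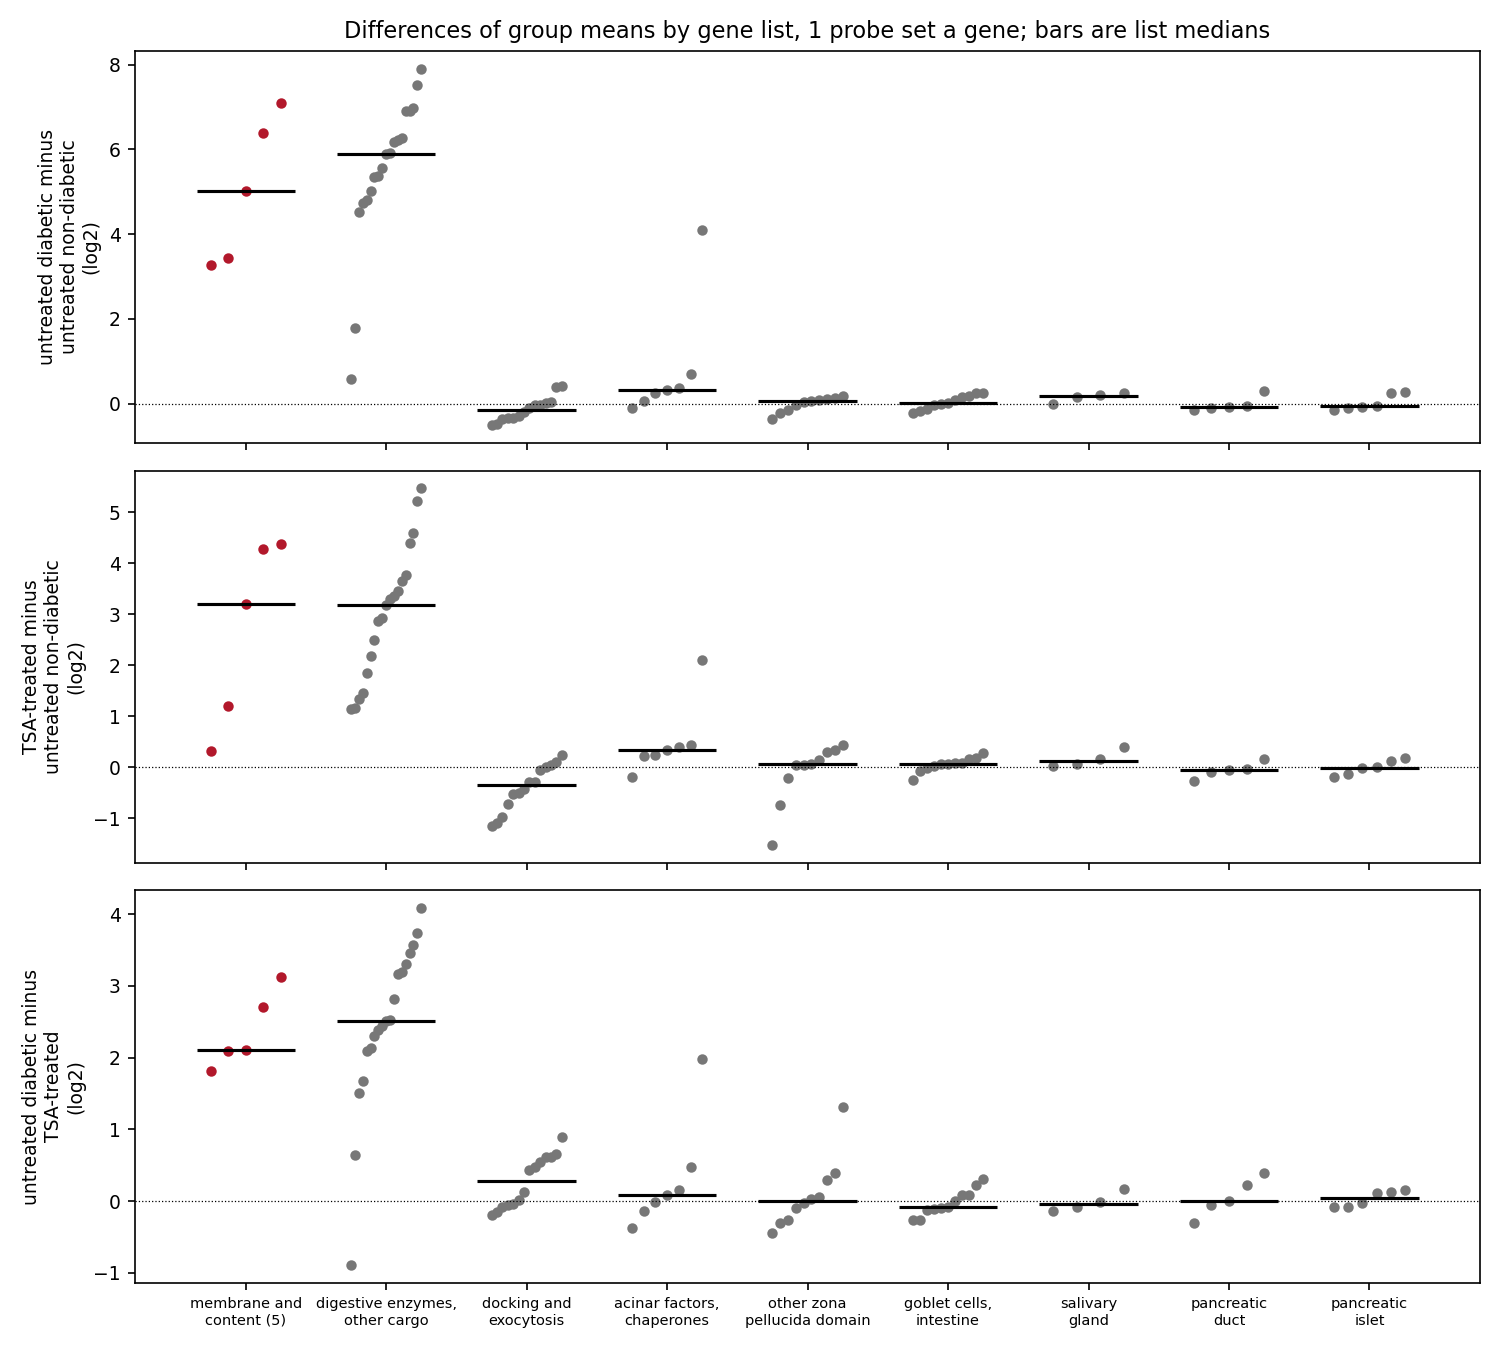
Difference of group means (log2) for each gene of 9 lists, 1 point per gene, with a bar at the list's median, for untreated diabetic minus untreated non-diabetic (top), TSA-treated minus untreated non-diabetic (middle) and untreated diabetic minus TSA-treated mice (bottom). The members and the digestive enzyme and cargo genes have medians of 5.02 and 5.89 in the top panel, while the medians of the other lists there lie between -0.15 and 0.33 and Pdia2 (4.10) is the point apart among the acinar factors and chaperones.

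The genes with the pattern most like each member over the 6 arrays were taken from 1674 probe sets of single genes whose log2 level ranged by at least 2. Likeness was Pearson's r, given as a description with n = 6 arrays of 3 pools, which all genes share. For Sycn they were Cela3b (0.999), Pnliprp1 and Prss2 (both 0.998), Rnase1 (0.994) and 2210010C04Rik (0.993). For Zg16 they were Spink1 (0.998), Cela3b (0.997), Cpb1, Pnliprp2 and Clps (all 0.996), and for Dmbt1 Cela3b and Cpb1 (both 0.998), Prss2 and Spink1 (both 0.997) and Pnliprp2 (0.996). Among these are elastase, lipase, trypsinogen, carboxypeptidase, ribonuclease, colipase and trypsin inhibitor genes of the pancreas.

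Cuzd1 was most like 2210010C04Rik (0.992), the bile salt-activated lipase Cel (0.981), Clps (0.977), Pdia2 (0.976) and Cela1 (0.975). Gp2 had a lower likeness to its nearest genes: Klk1 (0.985), a tissue kallikrein, then Ctrb1, Nupr1 and Prss2 (all 0.965) and Cela3b (0.956). Klk1 had log2 levels of 8.09 and 8.53 in untreated diabetic, 5.73 and 4.39 in TSA-treated and 4.32 and 4.12 in untreated non-diabetic mice, with the second TSA-treated array well below the first as for Gp2. The Prss2 probe set nearest to Gp2 (1417682_a_at) also dropped between these duplicates, at 9.48 and 7.37, whereas the one nearest to Sycn (1435507_x_at) was at 10.02 and 9.77. Likewise the Cela3b probe set nearest to Gp2 (1415884_at) was at 8.54 and 6.79 and the one nearest to Zg16 and Dmbt1 (1437326_x_at) at 9.51 and 9.80 on the TSA-treated arrays. Probe sets of 1 gene thus fell on both sides of the split seen among the members.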

How the data were processed

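Spleen RNA of 3 groups of NOD mice, 1 pool a group, was hybridized in duplicate to 6 Affymetrix mouse arrays. Quantile normalization and probe summary by RMA (Robust Multi-array Average) were done by the authors, whose deposited levels are log2. The table had 45101 probe sets, of which 64 control probe sets were left out and no filter on level was applied, and it held 0 columns of other samples. Detection calls were not used here, and the number of arrays limits the precision.

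One linear model over the 6 arrays, a mean for each of 3 groups, was fitted in R 4.3.3 (limma 3.58.1), and p-values were adjusted by Benjamini-Hochberg over 45037 probe sets (call at an adjusted p under 0.05). Differences are of group means, and SDs are over 2 arrays. A gene was given by its brightest probe set (mean of 6 arrays) among those naming it alone. Named genes were the members with all their probe sets, up to 3 called genes with the largest difference per list and comparison, and the 5 genes most like each member by Pearson correlation; other named genes (docking proteins, Ptf1a, Muc2, Umod, Krt19, Cftr, Sox9, Gcg, Ins2, Reg2) were chosen after their values were seen. A summed level is log2 of the sum of the linear levels. Promoter letters were searched in 250 bases before RefSeq starts. The members and gene lists were chosen with earlier results of these data known.

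Alternatives were a replicate block, leaving out each array, a fit of the 2 groups alone, the methods' t-test and local pooled error test (written anew from its published description), an intensity trend, quantile normalization again, median centring, probe sets above the median level, and averaging the probe sets of each gene. Leaving out arrays for the cargo genes was added after seeing the data. The tests were tested on simulated data.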

Additional observations from a re-analysis of the deposited data

How the results depend on the processing

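For untreated diabetic minus untreated non-diabetic mice, 7 member probe sets were called higher by limma, 4 to 8 when each array was left out in turn, and 0 by the methods' t-test after adjustment. For TSA-treated minus untreated non-diabetic mice 4 were called, 0 to 5 with each array left out and 0 by the t-test, and the local pooled error test called 6. For untreated diabetic minus TSA-treated mice 0 were called, 0 to 8 with each array left out, 6 by the local pooled error test, 1 after quantile normalization again and 2 among probe sets above the median level; the cause was not tested. Over all probe sets, the calls in this last comparison ran from 0 to 1047 with each array left out and were 72 by the local pooled error test, against 12 in limma, and the adjusted t-test called 1, 2 and 0 of 45037 in the 3 comparisons. For TSA-treated minus untreated non-diabetic mice the local pooled error test called 293 of all probe sets higher. For untreated diabetic minus TSA-treated mice, 13 were called higher after quantile normalization again and 20 among probe sets above the median level. With 2 arrays a group the t-test called 0 of all 8 in each comparison after adjustment, while 8, 5 and 7 had an unadjusted p under 0.05. The share of all probe sets at that unadjusted p was not counted. A group left with 1 array was assumed to vary like the others.

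Gene by gene, over 15 alternatives and 3 comparisons, 190 of the values for the 5 genes kept direction and side of the threshold, 17 lost and 17 gained a call, and 1 reversed: Gp2 in TSA-treated minus untreated non-diabetic mice was -0.60 without the first TSA-treated array and 1.22 without the second. With the mean of all probe sets, the untreated diabetic minus TSA-treated differences were 3.11 for Sycn and 2.88 for Zg16. In that fit, adjusted over genes, limma called Sycn (adjusted p 0.0387), Zg16 (0.0068), Cuzd1 (0.0411) and Dmbt1 (0.0267), and not Gp2 (0.383). The share of all genes called in that fit was not counted, so these calls cannot be set against it.

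With the replicate number as a block, 5, 4 and 0 member probe sets were called in the 3 comparisons, in the order above. The numbers did not pair the samples: deviations of same-numbered arrays correlated at -0.335 between untreated diabetic and untreated non-diabetic, -0.036 between TSA-treated and untreated non-diabetic and -0.105 between untreated diabetic and TSA-treated mice.

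Signal over background limits the low levels: the untreated non-diabetic levels of Sycn, Cuzd1, Dmbt1 and 2 of the Zg16 probe sets were near or below the array medians, where RMA levels compress a difference. Mice within a pool were not measured singly.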

Other observations

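Neutrophil and macrophage genes, which belong to the spleen itself, differed less between the groups than the zymogen granule genes. Their summed level had the same order of groups, at 15.25 and 15.28 in untreated diabetic, 14.95 and 14.86 in TSA-treated and 14.64 and 14.74 in untreated non-diabetic mice on the log2 scale. Gene by gene, 11 of 13 were higher in untreated diabetic than in untreated non-diabetic mice, by a median of 0.53. The medians with TSA-treated mice, -0.55 for TSA-treated minus untreated non-diabetic and 1.10 for untreated diabetic minus TSA-treated mice, moved with the second TSA-treated array, on which these genes were lower than on the first by a median difference of -1.04. C1qa had log2 levels of 7.24 and 3.42 and Cd68 of 7.43 and 4.14 on the TSA-treated arrays, both chosen after their values were seen. Limma called 0 of 13 in each comparison, with 4, 5 and 5 at an unadjusted limma p under 0.05, and the local pooled error test called 2, 2 and 1. Of these, 4, 3 and 5 were on the higher side in limma and 2, 0 and 1 in the local pooled error test. For TSA-treated minus untreated non-diabetic mice 5 of the 13 genes had a difference above 0.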
